A study of Mus musculus with 2 samples.

Results

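The genes described here encode the proteins of the cytosolic ribosome in mouse gastrocnemius, a calf muscle. They were chosen by name: a gene with a protein-coding transcript whose symbol begins with Rpl or Rps and a digit, or Rpsa, Rplp0, Rplp1 or Rplp2. Rpl3, Rpl3l, the Rps6k kinases and symbols ending in -ps were left out by the same rule. It found 84 genes among 21901 genes with a protein-coding transcript and 55536 annotated genes. Of these, 76 encode core proteins of the ribosome, 45 of the large and 31 of the small subunit. A further 7 are paralogs or retrogenes of core genes (Rpl7l1, Rpl10l, Rpl22l1, Rpl36al, Rpl39l, Rps27l and Rps27rt). The last, Rps19bp1, encodes a protein that binds Rps19 and is no part of the ribosome, although the rule takes its name. The 84 genes lay on 19 chromosomes, with 14 of them on chromosome 7.

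The ribosome is the particle that reads mRNA and joins amino acids into protein. Its small subunit decodes the mRNA, its large subunit forms the peptide bond, and most of the proteins are needed in about equal amounts to build a particle. In mammals most of these proteins come from a single active gene, whose mRNA is abundant, short and begins with a tract of pyrimidines (a TOP mRNA) through which mTORC1 sets its translation. Ribosomal protein mRNAs have also been copied into the genome many times by reverse transcription. Such a copy, a processed pseudogene, lacks introns and can carry the same bases as the mature mRNA of its parent, so a short sequencing read may match both.

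Both libraries came from gastrocnemius of female B6CASTF1/J mice (a first cross of C57BL/6J with CAST/EiJ) aged 36 days. They were made from 300 ng of total RNA, with no treatment or genetic change given in the labels. They form 1 group of 2 biological replicates, so there is no condition to compare. The labels number the tissue samples separately; whether each is from its own mouse is not stated, so a spread between them may be technical in part. Each library was quantified against mm10 in 2 ways: from alignments to the transcriptome (alignment-based) and straight from the reads (reads-based).

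The libraries held 37491975 counts (replicate 1) and 40461329 counts (replicate 2) on annotated genes. They stood apart in markers of muscle fibre type and of other cell types. All 6 slow-fibre markers were higher in replicate 2, where their TPM (transcripts scaled to a fixed total) summed to 2397 against 2.93 in replicate 1; gastrocnemius is a mixed muscle, and in replicate 1 these 6 markers lay between 0.08 and 1.19 TPM. The 5 fast-fibre markers summed to 91954 and 67471 TPM. All 6 fat, 5 red blood cell and 4 Schwann cell markers were over 2-fold higher in replicate 1, with sums of 239 against 25.1, 2445 against 425 and 116 against 35.5 TPM. All 5 T lymphocyte markers were over 2-fold higher in replicate 2 (sums of 0.2 and 5.56 TPM), and Cd3g and Rag1 were at 0 counts in replicate 1. Fibroblast (644 and 665 TPM), endothelial (36.9 and 42.2), macrophage (16.9 and 18.2) and tendon markers (58.4 and 81.9) had no member over 2-fold apart. In bulk RNA, fewer cells of a type and less RNA per cell cannot be told apart. The part of these differences in any library difference given below was not tested.

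Ribosomal protein genes stood far above the typical gene of this muscle. Detected, at 1 TPM or more in each library, were 82 of 84, where 45.4% of all genes with a protein-coding transcript were. Their median level was 171 TPM in the first replicate and 160 in the second (165 ± 7.80, SD, n = 2), where the median of the 9945 detected genes with a protein-coding transcript was 7.3 and 7.33 TPM. Together they held 14441 and 13778 TPM (14109 ± 469, SD, n = 2), or 1.44% and 1.38% of the transcripts. As raw counts the share was smaller, 0.639% and 0.593%, and the genes were short, with a median transcript length of 577 bases against 2382 for detected coding genes in replicate 1.

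In the alignment-based table the genes of highest level came from both subunits. Rplp1, an acidic protein of the stalk that recruits elongation factors, led with 548 TPM in replicate 1 and 507 in replicate 2. Rpl41, which encodes the shortest protein of the ribosome, held 427 and 384 TPM. Replicate 1 was the higher library for both of these large-subunit genes.

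The next places were mostly small-subunit genes. Rps27, which encodes a zinc-binding protein, held 366 and 386 TPM. Rps29, another zinc-binding protein, held 328 and 358 TPM. Rps14, which lines the cleft where mRNA is decoded, held 328 and 315 TPM. For Rps27 and Rps29 replicate 2 was the higher library, and for Rps14 the lower.

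Rpl23a, at the exit of the peptide tunnel, held 318 and 319 TPM. Rps24 held 310 and 273 TPM, and Rps25, known for its part in initiation at viral internal entry sites, held 284 and 288 TPM. Some genes named one after the other here did not differ beyond their spread: the ranges of Rpl41 and Rps27, of Rps29 and Rps14, of Rps14 and Rpl23a, and of Rps24 and Rps25 overlapped. The counts of Rplp1 and Rps29 were over 1.5-fold lower in the reads-based table, as described below.

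At the other end stood the paralogs and a few core genes. Rpl10l and Rpl39l, retrogenes known for their use in the testis, had 0 counts in both libraries. Rps19bp1 held 4.21 and 4.53 TPM, and Rps27rt, a retrogene of Rps27, held 5.67 and 9.81 TPM. Rpl7l1, a relative of Rpl7 with a role in ribosome assembly, held 15.6 and 16.0 TPM.

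Core genes with low values in the alignment-based table were Rpl27 (9.79 and 16.5 TPM), Rpl5 (15.4 and 14.4 TPM) and Rpl27a (33.57 and 31.01 TPM). Rpl12 held 47.9 and 29.5 TPM, and Rpl36a held 44.7 and 51.5 TPM. Rpl5 carries the 5S rRNA into the large subunit and can bind Mdm2. All 5 of these core genes were over 1.5-fold higher in the reads-based table, as described below.

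**Figure D1:**
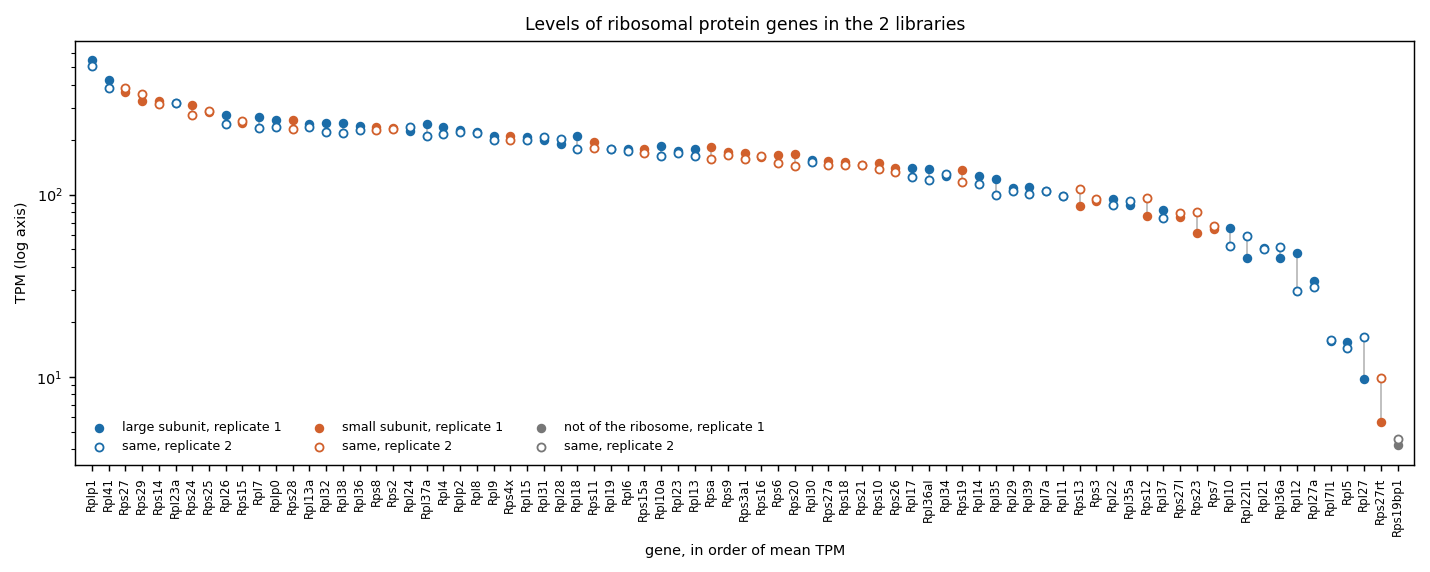
TPM of 79 ribosomal protein genes (vertical log axis) in replicate 1 (filled) and replicate 2 (open), in order of mean TPM, coloured by subunit; grey lines join the libraries, and Rpl10l and Rpl39l, at 0, are among the genes not drawn. Values run from 548 TPM for Rplp1 in replicate 1 to 4.21 TPM for Rps19bp1, and the open and filled points of most genes nearly touch.

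Subunits did not differ by much in level. The 45 core genes of the large subunit had medians of 179 and 175 TPM in replicates 1 and 2, and the 31 of the small subunit had medians of 171 and 163 TPM. The ratio of the medians, large over small, was 1.04 and 1.07 (1.06 ± 0.0209, SD, n = 2). In the reads-based table it was 1.12 and 1.03, values on both sides of that mean, and over counts not divided by length it was 0.989 and 0.862. Within 2-fold of the median of all 76 core genes lay 59 genes in replicate 1 and 61 in replicate 2. By the reads-based values 66 of the 76 did so in each library. There the lowest core gene was Rps3 (94.0 and 81.0 TPM), not Rpl27, and the highest was Rpl41 (969 and 831 TPM). Across the 84 genes Spearman's rho between the 2 ways of quantifying was 0.742 in replicate 1 and 0.723 in replicate 2, against 0.990 between the 2 libraries in the alignment-based table; each pair of columns shares its genes and its reads or its method, so these are descriptions.

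Many ribosomal protein genes share their mature sequence with copies elsewhere in the genome. A copy was here any other gene whose annotated transcript matched a transcript of one of the 84 genes at 90% identity or more over at least 100 bases and 70% of the copy's own length. By this measure 80 of the 84 genes had 1131 copies between them, of which 1062 are annotated as processed pseudogenes and 29 as transcribed processed pseudogenes. Rpl7a had 91 copies, Rpl21 83, Rpl29 69, Rps2 61 and Rpl17 53. Most copies had few reads: 102 of the 1131 held 10 counts or more in both libraries in the alignment-based table. For the median gene 22.5% of all 100-base windows of its transcripts, the length of an aligned read, also occurred unchanged in another gene. The share was 0% for 8 genes, among them Rps21, Rps3, Rpl22 and Rps27l, and over 50% for 16 genes, with 83.6% for Rpl36a and Rps6.

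Pairs of gene and copy are shown because counts are given below for both. The part of shared sequence in those counts was not tested. The stretches are coding bases 1 to 60 of the gene and the matching bases of its copy, from the GENCODE M21 transcripts on mm10, written 5′ to 3′.
Rpl27 (chr11:101442298-101445529, plus strand): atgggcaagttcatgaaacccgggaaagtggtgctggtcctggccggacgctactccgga
Gm11518, processed pseudogene (chr11:94037218-94037628, minus strand): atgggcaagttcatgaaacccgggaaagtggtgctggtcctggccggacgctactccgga
Rps23 (chr13:90922958-90924950, plus strand): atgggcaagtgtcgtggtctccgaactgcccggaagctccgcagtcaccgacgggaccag
Rps23-ps1, processed pseudogene (chr3:37714740-37715164, plus strand): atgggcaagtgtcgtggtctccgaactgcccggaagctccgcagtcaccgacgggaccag
Rpl10 (chrX:74270812-74273135, plus strand): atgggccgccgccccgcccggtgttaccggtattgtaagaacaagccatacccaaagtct
Rpl10-ps3, annotated as protein-coding (chr9:50344201-50344968, minus strand): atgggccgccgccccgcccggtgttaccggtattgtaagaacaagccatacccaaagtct

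No base differed in these stretches. Nor did any differ over all 411 coding bases of Rpl27, over 425 aligned coding bases of Rps23 or over the 645 coding bases of Rpl10. In the reference, a read wholly inside such coding sequence carries nothing that tells the gene from its copy. By contrast Rplp0, the core protein of the stalk, and its copy Gm8730 differed at 12 of 954 coding bases, which leaves 98.7% identity. A stretch of 60 coding bases that begins at base 42 holds 1 of these, in capitals.
Rplp0 (chr5:115559467-115563727, plus strand): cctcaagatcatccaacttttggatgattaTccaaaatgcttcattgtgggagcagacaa
Gm8730, processed pseudogene (chr8:102864845-102865798, minus strand): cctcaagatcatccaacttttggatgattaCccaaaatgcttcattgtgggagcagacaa

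Counts on copies were a sizeable part of the counts on genes and copies together. How many of these reads came from copies that are themselves transcribed was not tested. In the alignment-based table the 84 genes held 239590 (replicate 1) and 240058 counts (replicate 2), and their copies held another 69238 and 67048. Copies thus took 22.4% and 21.8% of the sum of both. In the reads-based table the genes held 253558 and 250435 counts and the copies 31705 and 29665, or 11.1% and 10.6%. Counting only the 296 rows named as a gene's symbol with -ps, the share was 10.98% in replicate 1 (95% Wilson interval 10.9 to 11.1%) and 10.7% in replicate 2 (10.6 to 10.8%), and 3.98% and 3.68% in the reads-based table. These intervals cover counting error only.

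Named pseudogene rows with the most counts were led by Rps2-ps13 on the X chromosome, with 4795 and 4350 counts in the 2 libraries, and 3906 and 3170 in the reads-based table. Rpl10-ps3 held 4305 and 4055 counts, and 0 in both libraries of the reads-based table. Rps23-ps1 held 2454 and 2359 counts, and Rpl28-ps1 held 2083 and 2008, again with 0 in the reads-based table. So 3 of these rows were among the highest in one table and empty in the other. Rps2-ps10 held 1374 and 1952 counts, and 797 and 1357 in the reads-based table. Among copies outside this naming, Gm15500, a transcribed copy of Rpl5, held 5025 and 5145 counts, more than Rpl5 itself. Of 76 copies with at least 100 counts in both libraries of the alignment-based table, 32 had fewer than 1.5 counts in both libraries of the reads-based table.

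Gene by gene, most ribosomal protein counts were alike in the 2 tables, and a minority were far apart. The ratio of reads-based to alignment-based counts had a median of 1.07 in replicate 1 and 1.05 in replicate 2 over the 81 genes with at least 10 counts everywhere, where all genes with a protein-coding transcript had 1.08 and 1.07. In both libraries 11 of the 81 genes (13.6%) were over 1.5-fold higher in the reads-based table, against 1.29% of all such genes. Another 5 (6.17%) were over 1.5-fold lower in both libraries, against 0.714%. Of the 3 genes that missed the filter, Rpl10l and Rpl39l had 0 counts in both tables, and Rps27rt had 47.6 and 87.0 counts in the alignment-based table and 0 in the reads-based table.

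The higher set was led by Rpl27, a large-subunit protein. It held 135 counts in replicate 1 and 244 in replicate 2 in the alignment-based table, and 2025 and 2170 in the reads-based table, ratios of 15.1 and 8.90. Both libraries were low in one table and high in the other. In the alignment-based table its 12 copies held 1812 and 1880 counts, and Gm11518 and Rpl27-ps3 were listed at the same value, 905 counts in replicate 1 and 939 in replicate 2.

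Rpl10, one of the last proteins to join the large subunit, held 1408 and 1210 counts against 5991 and 5460 reads-based, ratios of 4.26 and 4.51. Rps23, at the decoding centre, held 818 and 1072 counts against 3394 and 3564, ratios of 4.15 and 3.32. In the alignment-based table most counts of the gene and its copies lay on the copies: 75.4% and 77.0% for Rpl10, and 75.02% and 68.8% for Rps23. For Rpl5 the share on copies was 86.0% and 86.2%, and for Rpl27a it was 71.3% and 70.3%.

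The remaining genes of the higher set were Rpl27a (ratios of 2.73 and 2.83), Rpl28 (2.53 and 2.31), Rpl5 (2.31 and 2.47), Rpl36a (2.54 and 2.07), Rpl21 (2.25 and 2.25), Rpl37 (2.01 and 2.02), Rpl12 (1.68 and 1.62) and Rpl31 (1.66 and 1.57). All 11 encode core proteins, 10 of the large subunit and, in Rps23, 1 of the small. When the counts of its copies were added to each gene in both tables, all 11 came within 1.2-fold in both libraries. Over the 81 genes, those within 1.2-fold went from 46 to 63 in replicate 1 and from 49 to 63 in replicate 2, and none was more than 1.5-fold higher in the reads-based table. This sum was added after the values of both tables had been seen.

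**Figure D2:**
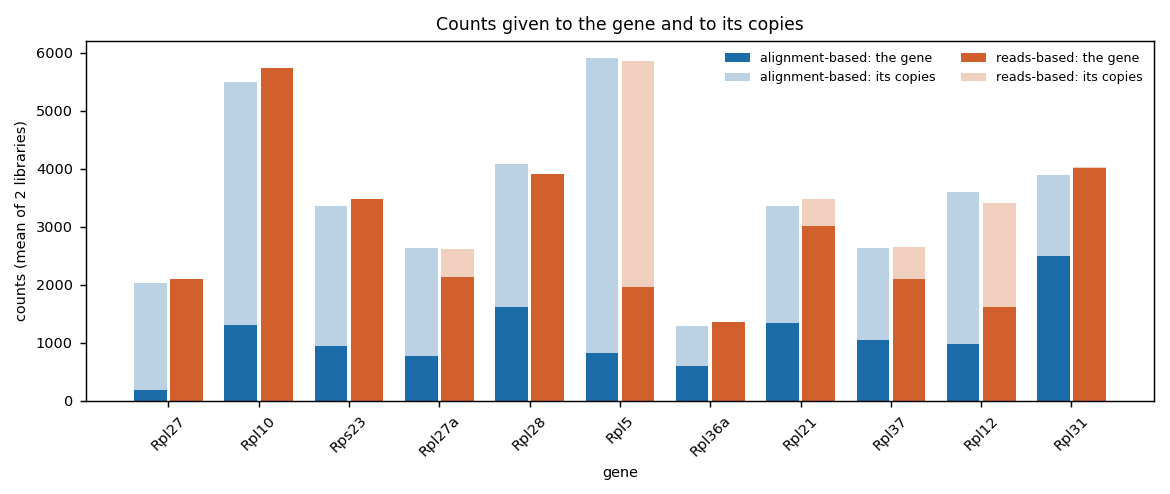
Counts (mean of the 2 libraries) given to a gene (solid) and to its copies by sequence (pale) in the alignment-based table (blue) and the reads-based table (orange), for the 11 genes over 1.5-fold higher in the reads-based table in both libraries. Each pair of stacked bars reaches about the same height, while the solid parts differ, most for Rpl27 with 135 and 244 against 2025 and 2170 counts.

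In the lower set, adding copies did not bring the tables together. Rpl36 held 2068 and 2080 counts against 348 and 320 reads-based, ratios of 0.168 and 0.154, which became 0.235 and 0.223 with copies. Rplp1 held 6697 and 6544 against 1951 and 2020, ratios of 0.291 and 0.309, and 0.341 and 0.365 with copies. Both libraries gave the same direction. Rps21 held 1319 and 1383 counts against 462 and 477, ratios of 0.350 and 0.345, and shares none of its 100-base windows with another gene.

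Rps29 had ratios of 0.365 and 0.297, and 0.328 and 0.288 with copies. Rpl19, which lies at the bridge between the subunits, was the exception in size, with 0.306 and 0.361 alone and 0.642 and 0.653 with its 19 copies. With copies added, 8 genes were over 1.5-fold lower in the reads-based table in each library. A gene's effective length is the number of start places a table allows, and the 2 tables set it differently. Alignment-based values matched the places where a read of 100 bases can start. In the reads-based table of replicate 1 long transcripts lost a median of 332 bases. Of the 5 genes in this set Rpl36, Rps29 and Rps21 had effective lengths of 96.4, 100.1 and 103 bases in that table. In the alignment-based table they had 284, 291 and 295 bases. Those of Rplp1 and Rpl19 were 175 and 409 bases reads-based, against 400 and 652 bases alignment-based, where the medians of the 84 genes were 409 and 478 bases. The median ratio of effective lengths, reads-based over alignment-based, was 0.755 for the 84 genes and 0.994 for detected coding genes in replicate 1, and the part of length in the counts was not tested.

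**Figure D3:**
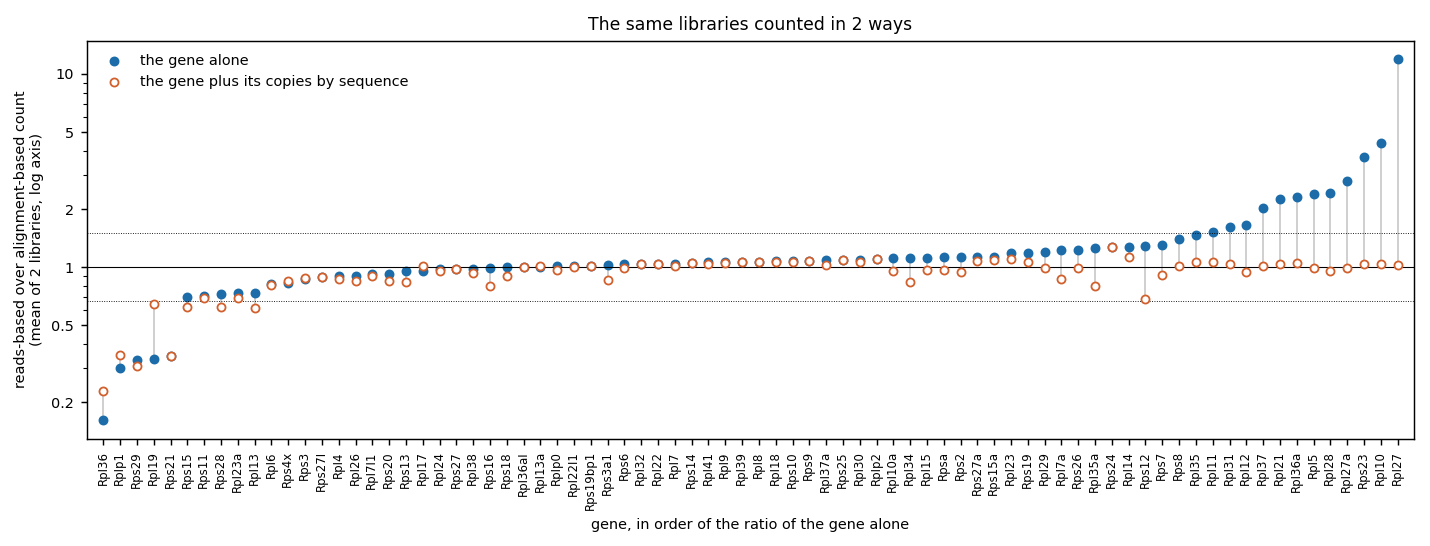
Ratio of reads-based to alignment-based counts (vertical log axis, mean of the 2 libraries) for 78 of the 81 genes, alone (filled) and with the counts of their copies added to both tables (open); dotted lines mark 1.5-fold. Filled points run from Rpl36 at the left to Rpl27 at the right, the open points at the right end lie near 1, and those at the left end stay low.

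TPM values differed between the tables by more than counts did. The median ratio of TPM, reads-based over alignment-based, was 1.89 and 1.78 for the 82 detected genes, against 1.53 and 1.42 for detected coding genes. Together the 84 genes took 2.78% and 2.47% of all transcripts in the reads-based table. A level of these genes in TPM is therefore specific to the table it was read from.

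The alignment-based table carries its own measure of doubt, the posterior SD of the count, which says how widely the count would vary if shared reads were divided again. Relative to the count its median was 0.753% in replicate 1 and 0.723% in replicate 2 over 81 genes, those whose mean count was 100 or more. The median of the 9530 coding genes past that filter was 0. It exceeded 5% in both libraries for 4 of the 81 genes, against 1.2% of coding genes. These were Rps12 (10.9% and 13.6%), Rpl10 (10.8% and 11.4%), Rpl27 (10.3% and 9.12%) and Rpl36a (5.45% and 5.04%). Rpl11, which acts with Rpl5, came next with 4.04% and 3.45%. It was under 0.1% in both libraries for 14 of the 81 genes (17.3%), among them Rps21 at 0, against 87.2% of coding genes. A second deposited score, the quartile coefficient of variation of TPM, went the other way. Its median was 0.0161 and 0.0166 for ribosomal protein genes in replicates 1 and 2, against 0.0449 and 0.0433 for coding genes. Even for Rpl27 the stated doubt, 10.3% of 135 counts, was far smaller than the difference between the tables. Across the 81 genes the posterior SD rose with the share of 100-base windows found elsewhere (Spearman's rho 0.591), and the absolute log2 ratio between the tables less so (0.234); all points come from the same 2 libraries.

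Between the 2 libraries most ribosomal protein genes lay close together. Of the 82 genes whose mean count was 10 or more, none was over 2-fold apart, where 7.72% of all genes past that filter were. Within 0.25 on the log2 scale lay 73 of the 82, against 55.8% of all genes, and the median absolute log2 ratio was 0.09 against 0.21. Many other genes have lower counts; past a mean count of 100, 66.7% of all genes lay within 0.25 and their median absolute log2 ratio was 0.17. Fewer were higher in replicate 2, 24 of 82, where 49.8% of all genes were. The median log2 ratio, replicate 2 over replicate 1, was -0.06 (all genes 0.00), with quartiles of -0.12 and 0.02. It was -0.07 over the large and -0.06 over the small subunit. Counting error alone gave a 95% exact interval that left out 1 for 47 of the 82 ratios (57.3%), where it did for 40.9% of all genes past the same filter and 49.1% of those past a mean count of 100. The edgeR estimate of the spread between the libraries over 14263 genes was a coefficient of variation of 0.220.

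Scaled to the spike-in total instead, every log2 ratio of every gene rose by 0.39, and all 82 were then higher in replicate 2. Counts per library total or DESeq2 size factors moved the ratios by -0.04 and 0.02. The level of the set relative to other genes does not depend on this choice, and its absolute direction does.

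**Figure D4:**
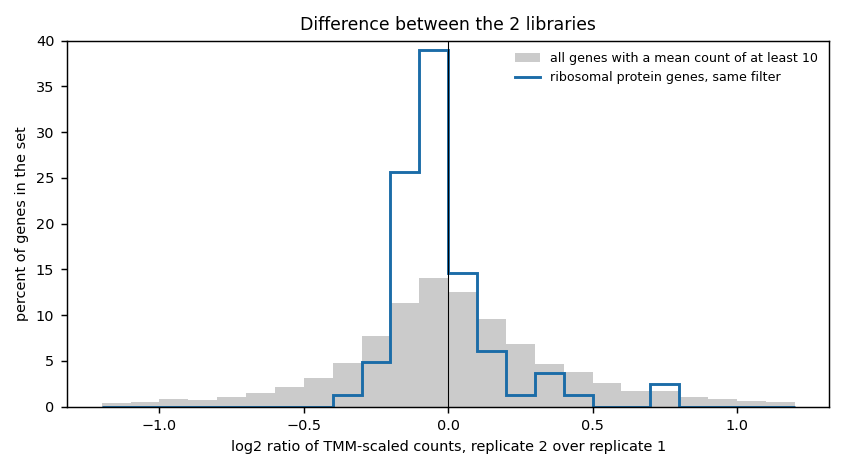
Share of genes (percent, vertical axis) by log2 ratio of TMM-scaled counts, replicate 2 over replicate 1, for the 82 ribosomal protein genes (blue line) and all genes past the same count filter (grey). The blue line is narrower and peaks just left of 0, and no ribosomal protein gene reaches a log2 ratio of 1 or -1.

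Higher in replicate 2 were Rpl27 (log2 ratio 0.79), Rpl22l1 (0.47), Rps13 (0.35), Rps23 (0.32) and Rps12 (0.31), the 5 largest among genes whose mean count was 100 or more. Their count ratios had 95% exact counting intervals of 1.39 to 2.14, 1.24 to 1.56, 1.18 to 1.37, 1.14 to 1.37 and 1.15 to 1.34. With copies added, Rpl27 went to 0.06, Rps23 to 0.00 and Rps12 to -0.10, while Rpl22l1 stayed at 0.47 and Rps13 at 0.30. In the reads-based table with the same scaling, Rpl27 stood at 0.03 and Rps23 at 0.00, Rpl22l1 at 0.40, Rps13 at 0.27 and Rps12 at 0.26. Rpl22l1 and Rps13 were thus over 1.2-fold higher in replicate 2 in each of these 3 counts, and Rpl27 and Rps23 were so, among these 3, only in the alignment-based row of the gene itself.

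Lower in replicate 2 were Rpl12 (-0.36), Rpl10 (-0.29), Rpl35 (-0.29), Rpl7 (-0.23) and Rpl37a (-0.21). With copies added these became -0.27, -0.19, -0.17, -0.22 and -0.21. In the reads-based table they were -0.41, -0.20, -0.17, -0.23 and -0.22. The direction was the same in all 3 counts for these 5 genes. For Rpl12 the log2 ratio of TPM was larger, -0.70, while the values of the others by TPM lay between -0.34 and -0.20.

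Paralogs can add a second version of some ribosomal proteins, and their share of the pair differed widely. The shares below are of RNA over all transcripts of a gene, coding or not. Of the counts of Rpl22l1, 14.8% and 16.9% lay on protein-coding transcripts in the alignment-based table, and 32.4% and 33.7% in the reads-based table. Rpl22l1 is the relative of Rpl22, an RNA-binding protein of the large subunit known to repress it. Rpl22 held 1701 and 1616 counts, and Rpl22l1 held 507 and 738. By TPM, Rpl22l1 was 32.1% and 40.5% of the pair (36.3 ± 5.97%, SD, n = 2), and by counts 23.0% (95% Wilson interval 21.3 to 24.8%) and 31.4% (29.5 to 33.3%). The counting intervals of the 2 libraries do not overlap. Rpl22 was higher in replicate 1 (log2 ratio -0.14) and Rpl22l1 in replicate 2. The posterior SD was 0.637% and 0.466% for Rpl22l1, and the reads-based share by TPM was 37.9% and 44.6%. The tables also split the transcripts of Rpl22 differently. Of its counts, 97.1% and 98.2% lay on protein-coding transcripts in the alignment-based table, and 46.0% and 42.2% in the reads-based table.

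Rps27l, a p53-induced relative of Rps27, was 17.0% and 17.1% of its pair by TPM. Its protein-coding transcripts held 90.4% and 87.7% of its counts in the alignment-based table, and 0.625% and 0.0% in the reads-based table. By counts it was 25.2% (23.8 to 26.6%) and 25.4% (24.1 to 26.8%), intervals that overlap. Rpl36al, an intronless relative of Rpl36a, was the larger partner in its pair with 75.7% and 70.1% by TPM. In the reads-based table its share was 57.1% and 55.8%, as the counts of Rpl36al itself were alike in both tables (1820 and 1676 against 1806 and 1699) and those of Rpl36a were not. Rpl7l1 was 5.53% and 6.43% of the pair with Rpl7.

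The testis paralogs were not seen. Rpl39l had 0 counts beside 1721 and 1660 of Rpl39, which by a limit of 3 counts allows a share of up to 0.174% and 0.181% of counts. Rpl10l had 0 counts beside 1408 and 1210 of Rpl10, which by the same limit allows up to 0.213% and 0.248%. Rps4l, annotated as a transcribed processed pseudogene and so not among the 84, held 15 and 8 counts beside 5586 and 5635 of Rps4x.

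In the alignment-based table most of the reads of these genes were assigned to protein-coding transcripts. The reads-based table gave other shares, as described below. The median share of counts on coding transcripts was 99.0% in replicate 1 and 98.3% in replicate 2 over 81 genes, against 97.3% and 97.1% for coding genes past the same count filter. Where a gene has a transcript annotated as retaining an intron, the median share on such transcripts was 0.830% and 1.06% over 64 genes, against 3.10% and 3.20%. Yet 12 of the 81 genes had under 50% of their counts on coding transcripts in both libraries, against 2.95% of coding genes.

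In these 12 the split was among transcripts of one gene. Rps16, Rps26, Rps18, Rps20 and Rps23, all of the small subunit, had 95.5%, 93.9%, 83.3%, 82.9% and 66.3% of their counts on retained-intron transcripts in replicate 1, and 97.8%, 92.1%, 88.2%, 81.6% and 73.7% in replicate 2. The reads-based table split the same genes otherwise, with 54.1%, 43.1%, 15.5%, 93.7% and 2.93% on such transcripts in replicate 1. There 22 genes (27.2%) had under 50% on coding transcripts in both libraries, against 3.77% of coding genes in the same table. Both ways of quantifying placed 8 genes there: Rpl22l1, Rpl23, Rpl35, Rpl37, Rps16, Rps18, Rps20 and Rps23. The tables differ on these shares by so much that they describe the assignment in each table, and splicing was not tested. A small nucleolar RNA lies inside 29 of the 84 genes. Of the 64 genes with an annotated retained-intron transcript, 24 hold such an RNA. In the alignment-based table these 24 had medians of 2.45% and 1.85% of counts on retained-intron transcripts, and the other 40 had 0.448% and 0.790%.

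Start sites are shown because the set is known for the pyrimidine tract at the start of its mRNAs. A link between the tract and the log2 ratios was not tested. RefSeq start sites on GRCm38.p6 matched 65 of the 84 genes. The first transcribed base was C in 22 of the 65 (33.8%), against 18.9% of 27025 genes. A C followed by 4 bases that were each C or T stood at the start of 14 (21.5%), against 3.01%. In 6 examples below, 20 bases before the start are followed by 10 from it, with the first 5 transcribed bases in capitals, 5′ to 3′.
Rpl28 (chr7:4792945-4792974, plus strand): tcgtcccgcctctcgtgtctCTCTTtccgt
Rpl35 (chr2:39005122-39005151, minus strand): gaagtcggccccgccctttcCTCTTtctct
Rpl38 (chr11:114668560-114668589, plus strand): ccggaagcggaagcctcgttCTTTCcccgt
Rplp2 (chr7:141447631-141447660, plus strand): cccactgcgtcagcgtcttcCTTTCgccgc
Rps6 (chr4:86857358-86857387, minus strand): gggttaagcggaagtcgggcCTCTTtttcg
Rps27 (chr3:90213639-90213668, minus strand): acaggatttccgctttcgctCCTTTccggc

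They were picked from the 14, so each begins with 5 pyrimidines. The letters CTTTCC stood on the sense strand within 30 bases of the start in 13 of 65 genes, against 3.40% of all genes. Over the window from 250 bases before the start to 50 after it, on either strand, the letters CCGGAAG, which ETS factors can bind, occurred in 26 of the 65 genes, against 9.93% of all genes. GGGCGG, a match for SP factors, occurred in 63.1% against 38.2%, and AAGATGGC, a match for YY1, in 9.23% against 3.19%. TATAAA occurred in 10.8% against 15.7%. A match is a description of the letters, and start sites annotated a few bases off would move the counts at the start.

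Lists of other genes of translation were set beside the ribosomal protein genes. Fau, whose product is a fusion to a small-subunit protein, and Rack1, a scaffold on the small subunit, lie outside the naming rule. Fau held 157 TPM in both libraries, and Rack1 held 149 and 142 TPM. Their log2 ratios were 0.01 and -0.13. No gene of the 7 lists below was over 2-fold apart between the libraries. Of all genes past a mean count of 10, many of them with fewer than 100 counts, 7.72% were. That share was not taken past a mean count of 100, and lists of 8 to 39 genes would hold few such genes. In 6 of the 7 lists fewer genes were higher in replicate 2 than lower. Within 0.25 on the log2 scale lay 36 of 39 initiation factors, 12 of 15 elongation and termination factors, 7 of 8 other TOP mRNAs and 25 of 30 assembly factors. For RNA polymerase I and its factors the number was 13 of 19, for mTORC1 and TOP control 11 of 15, and for signal recognition and nascent chains 11 of 13. Of all genes, 55.8% lay within 0.25 past a mean count of 10, and 66.7% past 100. The shares for RNA polymerase I (68.4%) and for mTORC1 and TOP control (73.3%) were near the latter.

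Of 39 initiation factors all were detected, with a median log2 ratio of -0.06 and 11 of 39 higher in replicate 2. Of 15 elongation and termination factors 13 were detected, with a median of -0.04 and 5 of 15 higher. For other TOP mRNAs, with 8 of 8 detected, the median was -0.03 with 4 of 8 higher. Of 30 assembly factors all were detected, with -0.05 and 9 of 30. RNA polymerase I, which makes rRNA, and its factors were detected in 19 of 19, with -0.04 and 8 of 19. Of 15 genes of mTORC1 and TOP control 14 were detected, with 0.00 and 7 of 15 higher. Genes of signal recognition and nascent chains were all detected (13 of 13), with -0.01 and 6 of 13.

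The highest of these genes were Tpt1, Eef1a2 and Eif1. Tpt1, a TOP mRNA that encodes a small calcium-binding protein, held 1232 TPM in replicate 1 and 1270 in replicate 2. Eef1a2, the form of the aminoacyl-tRNA carrier typical of adult muscle, held 830 and 812 TPM, above every ribosomal protein gene in the same table. Eif1, which guards start codon choice, held 465 and 446 TPM. Rrs1, an assembly factor, had the largest log2 ratio upward (0.69), and Deptor, an inhibitor of mTOR, the largest downward (-0.63).

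By list the median levels in replicate 1 were 55.1 TPM for other TOP mRNAs, 39.2 for initiation factors and 31.8 for elongation and termination factors. Signal recognition and nascent chains had 28.2, and mTORC1 and TOP control 10.5. Assembly factors had 9.17, and RNA polymerase I and its factors 6.5. The ribosomal protein genes, at 171 TPM, were above all of them. In replicate 2 the values were 45.9, 40.3, 29.7, 23.7, 13.9, 9.01 and 6.93 TPM, in the same order.

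**Figure D5:**
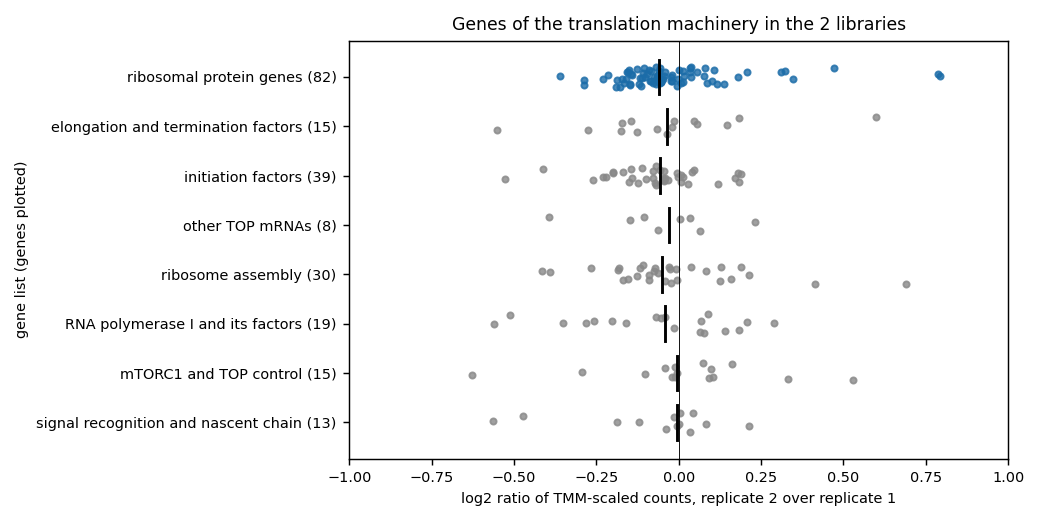
Log2 ratio of TMM-scaled counts, replicate 2 over replicate 1 (horizontal axis), for each gene whose mean count was 10 or more, by gene list with the number plotted; black bars are medians. The ribosomal protein genes sit close around -0.06 with Rpl27, Rps27rt and Rpl22l1 to the right, and list medians run from -0.06 to 0.00.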

How the data were processed

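Per the labels, 2 libraries of total RNA with spike-ins were measured, each in 3 tables. The authors deposited expected counts and TPM per gene and transcript derived from transcriptome alignments, and estimated counts and TPM per transcript derived from the reads, using mm10 and the M21 annotation of GENCODE, as their descriptions state. The deposited posterior SD of the count and the TPM quartile coefficient were used as scores. Which program made them is not given in the sources used here. For each gene, reads-based transcripts were summed. Expected counts were rounded for edgeR 4.0.16 (intercept only) and DESeq2 1.42.0 in R 4.3.3, tested on simulated data. Log2 ratios used TMM and a prior count of 0.5. Copies were found with BLAST+ 2.17.0 (sense strand, not overlapping one of the 84 genes), each given to its best match. Python 3.11.15, scipy 1.17.1. Named genes are the 10 highest and 10 lowest, the 5 extreme log2 ratios each way, the 10 largest table differences, the 5 largest posterior SDs, paralog pairs, the 5 fullest -ps rows and the extremes of the translation lists; others named were chosen after their values were seen. The genes and lists were chosen with earlier results of these data known. Depth was 37491975 and 40461329 counts; intervals cover counting error only. No condition was tested. Values of a few genes are left out of the text and figures.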

Additional observations from a re-analysis of the deposited data

How the results depend on the processing

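No paired analysis was possible because the 2 libraries form 1 group. Of the values over the whole gene set, 44 settings gave the same result, 16 moved it and 2 reversed it. For log2 ratios of single genes the numbers were 59, 16 and 5, and for paralog shares 9, 5 and 0. Many of the same results were fixed in advance, so these numbers do not measure robustness. Other count filters could not change the ratio of a single gene. Library total and DESeq2 scaling moved every ratio by less than the tolerance. Transcript values add up to gene values, and either of 2 libraries always lies within 1 SD of their mean. The median TPM of 165 became 68.0 as counts scaled by the library total (CPM), 289.9 in the reads-based table and 385 over nuclear protein-coding genes, and the sum of 14109 became 6162, 26272 and 32917; each library alone gave 160 to 171 (sums 13778 to 14441). Under spike-in scaling the median log2 ratio reversed from -0.06 to 0.33, the number higher in replicate 2 went from 24 to 82 and the number over 2-fold apart from 0 to 2 (Rpl27 and Rps27rt); Rpl12, Rpl10, Rpl35, Rpl7 and Rpl37a reversed to 0.030, 0.10, 0.11, 0.16 and 0.18. The median ratio of the tables went from 1.06 to 1.85 by TPM and 0.989 with copies added (1.05 to 1.07 by library), and the 16 genes over 1.5-fold apart to 8 with copies. The median posterior SD was 0.769% over each gene's mean of both libraries, and 0.753% and 0.723% within replicates 1 and 2. The quartile coefficient of TPM gave 1.64%, and by that score coding genes stood higher, as given above. The share on pseudogene rows went from 10.9% to 3.83% reads-based, 13.4% by TPM and 22.1% with all copies. The subunit ratio reversed from 1.06 to 0.925 over counts. Rpl22l1's share went from 36.3% to 27.2% by counts, that of Rps27l from 17.1% to 22.0% reads-based and 25.3% by counts, that of Rpl36al from 72.9% to 56.5% reads-based, and that of Rpl7l1 from 6.0% (5.98%) to 11.9% by counts. The cause of these moves was not tested. Settings with copies, the quartile coefficient and the subunit ratio by counts were chosen after seeing the data; a posterior SD of TPM was not run, since the tables used give none. With 2 libraries, a spread rests on 1 difference, and genes at 0 could lie anywhere under the stated limits.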
